A study of Mus musculus with 24 samples.

Results

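The cytoplasmic ribosomal protein genes are the genes for the protein parts of the ribosome that translates messenger RNA outside the mitochondria. They were taken as every gene probe on the arrays whose gene name was Rpl or Rps plus a number, with at most 1 short ending such as a, x or l, together with Rplp0, Rplp1, Rplp2 and Rpsa; the S6 kinases were left out. This gave 77 of 28787 named genes on the array, 45 of the large and 32 of the small subunit, measured by 128 probes. All 77 genes passed the filter on dim probes, with 126 of the 128 probes, and 40 genes had 1 probe only. Genes of the family that the array names differently lie outside the rule: Rpl36al, Rpl7l1 and Rpl22l1, and probes named Arbp, 1100001I22Rik and 4930517K11Rik, whose accessions are Rplp0, Rpl34 and Rpl39l in RefSeq.

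The samples were whole thymuses of C57BL/6 mice at 15 weeks of age, 6 mice per genotype, 3 females and 3 males in each. The genotypes were wild type, p27 knockout (loss of the cyclin-dependent kinase inhibitor p27Kip1), stathmin knockout (loss of a protein that destabilises microtubules) and the double knockout, which lacks both. Thymus RNA carried the dye Cy5 on every array and was hybridised against a Cy3-labelled pool of fibroblast RNA from mice of all 4 genotypes. Each value below is a log2 ratio of thymus (Cy5) over fibroblasts (Cy3) unless it is called a change, which is a difference of such ratios between genotypes. The labels give neither how the alleles were made nor the sex of each mouse.

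Each ribosome holds 1 copy of most ribosomal proteins, and cells make them in matched amounts. Their messenger RNAs are abundant, and most begin with a C followed by a run of pyrimidines, the 5′ terminal oligopyrimidine (TOP) motif, through which the kinase mTOR controls their translation. Loss of 1 copy of several of these genes impairs red cell production in humans (Diamond-Blackfan anaemia), and in mice Rpl22 is needed for the development of αβ T cells in the thymus. Processed pseudogenes of this family are numerous in mammals, so a probe may also bind their transcripts, which was not tested.

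RefSeq promoter windows were found for 57 of the 77 genes (build GRCm38.p6, 250 bases before to 50 after the annotated start; the first window listed was used for the 9 genes with more than 1). The windows below belong to genes that later differed between the double and the p27 knockout. Each holds 60 bases before and 25 after the annotated start. They are shown because these genes moved in opposite directions while some share a pyrimidine run near the annotated start. Capitals mark a C followed by at least 7 pyrimidines that begins within 25 bases of the start on the gene's strand, and the ETS-type motif CCGGAAG on either strand.
Rpl4 (chr9:64173327-64173411, plus strand): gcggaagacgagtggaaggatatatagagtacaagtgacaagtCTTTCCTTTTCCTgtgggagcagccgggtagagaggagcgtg
Rpsa (chr9:120127706-120127790, plus strand): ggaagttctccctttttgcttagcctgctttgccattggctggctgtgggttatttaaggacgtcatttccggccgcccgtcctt
Rps9 (chr7:3703981-3704065, plus strand): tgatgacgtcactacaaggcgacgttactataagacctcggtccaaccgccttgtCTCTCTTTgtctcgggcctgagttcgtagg
Rps6 (chr4:86857343-86857427, minus strand): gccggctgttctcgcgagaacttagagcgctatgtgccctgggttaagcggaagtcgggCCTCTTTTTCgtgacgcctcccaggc
Rps25 (chr9:44407654-44407738, plus strand): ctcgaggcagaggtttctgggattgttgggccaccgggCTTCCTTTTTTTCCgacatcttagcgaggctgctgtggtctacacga
Rps3 (chr7:99483685-99483769, minus strand): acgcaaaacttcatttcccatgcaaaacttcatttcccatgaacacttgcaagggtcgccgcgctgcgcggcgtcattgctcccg
Rpl27a (chr7:109519135-109519219, plus strand): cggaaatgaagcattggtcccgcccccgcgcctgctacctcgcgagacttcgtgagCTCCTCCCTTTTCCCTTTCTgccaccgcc
Rpl31 (chr1:39367791-39367875, plus strand): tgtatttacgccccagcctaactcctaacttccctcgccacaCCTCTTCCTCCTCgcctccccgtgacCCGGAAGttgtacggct
A pyrimidine run was found in 31 of the 57 windows (54.4%), against 16.8% of the windows of all 27025 genes with one. CCGGAAG was found in 23 of 57 (40.4%, searched over the whole window on both strands) against 9.12% of all genes, and the GC box GGGCGG in 59.6% against 35.9%. The TATA-type motif TATAAA was in 8.77% against 14.2%. Of the 8 genes with a window that read higher in the double knockout, 4 carry the run (Rpl4, Rps9, Rps6 and Rps25) and 4 do not (Rpsa, Rplp0, Rps3a and Rpl24). Of the 3 that read lower, Rpl27a and Rpl31 carry it and Rps3 does not. The runs of Rpl4, Rps25 and Rpl31 begin at -17, -22 and -18 from the annotated start and end before it. Whether the runs found here are TOP motifs was not tested.

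The ribosomal protein genes were among the brightest on the arrays. The median gene's probe lay at the 99.82nd percentile of brightness, 70 of the 77 lay above the 99th percentile, and 52 of the 100 brightest gene probes belonged to the family. This sets a limit on the upper side, since 29 of the chosen probes were saturated on at least 1 array. Outlier spots, as the scanner's output marks them, were dropped, which left 28 missing values, and 61 of the 77 genes had a value on all 24 arrays.

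p27 knockout replicates 5 and 6 stood apart from the other arrays before any gene was tested. The 99th percentile of their Cy5 signal was 50.7 and 19.4 in units of 1000, against 56.3 to 339.8 on the other 22 arrays. The average correlation of an array's log2 ratios with every other array was 0.59 and 0.21 for these 2, and 0.78 to 0.87 for the rest. On replicate 6 the median of 15 markers of double-positive thymocytes, the main cell type of the thymus, was 0.33, against 5.13 to 7.43 on all other arrays, so that the labelled tissue was not seen in its markers there. Replicate 5 differed from it in this, since the highest of these medians, 7.43, was its own. Counts with the p27 knockout, and the genes that passed, are therefore also given without these 2 mice, called the 2 dim mice below. Leaving them out does not remove the difference in brightness. The 99th percentile of Cy5 averaged 86.4 in the p27 knockout. It averaged 190.6 in wild type, 239.5 in the stathmin and 247.8 in the double knockout. The p27 knockout arrays that remain ran from 75.3 to 170.6, and the double knockout arrays from 200.2 to 320.0. The part of brightness in the genes that still passed was not tested. Each of the 6 slides held 1 array of each genotype, always at the same place, so slide position and genotype cannot be told apart.

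In wild-type thymus most ribosomal protein genes read above the fibroblast pool. The mean ratio was above 0 for 71 of the 77 genes, against 55.1% of all genes tested, and 52 genes (67.5%) were above 0 on every wild-type array, against 30.1% of all genes. The median gene stood at 0.85, a 1.80-fold ratio, against 0.09 over all genes, with 0.77 for the large and 1.08 for the small subunit. The size of this excess depended on the normalization. The family's level was lower with Agilent's log ratios, and lower still without the loess curve, which evens out ratios along brightness (values in the last section). In a bulk tissue a higher share of cells of a type and more RNA per cell cannot be told apart.

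The highest mean ratios were those of Rpl13a, Rps29 and Rps27. Rpl13a, a large-subunit protein also known for a role in silencing translation in inflammation, ran from 1.77 to 3.28 with a median of 2.83 on the wild-type arrays. Rps29 ran from 1.28 to 3.31 (median 2.71) and Rps27, both zinc-binding proteins of the small subunit, from 1.01 to 3.18 (median 2.43). These 3 genes were above the pool on each wild-type array, and their ranges overlapped one another. Their probes were saturated on 2, 11 and 9 of the 24 arrays, and those of the next genes, Rplp2 and Rps14, on 19 and 13, so the order among them is not fixed.

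The lowest were Rpl14, Rpl31 and Rpl27a, all of the large subunit. Rpl14 ran from -2.09 to -1.67 (median -1.78), Rpl31 from -1.41 to -0.61 (median -1.25) and Rpl27a from -1.42 to -0.33 (median -1.24). The paralogue Rps27l, a p53 target, was close to them at -1.09 ± 0.20 (SD, n = 6). They were 4 of the 5 genes below 0 on every wild-type array, where 27.2% of all genes were. The ratio of 1 gene depended on its probe: 7 of the 37 genes with several probes had probes more than 2 apart in wild type. For Rps20 the chosen, brightest probe averaged 0.80 and the other probe -2.31, for Rps12 they averaged 1.68 and -1.22, and for Rpl23 1.29 and -1.45. A low ratio for such a gene is therefore a statement about a probe.

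**Figure D1:**
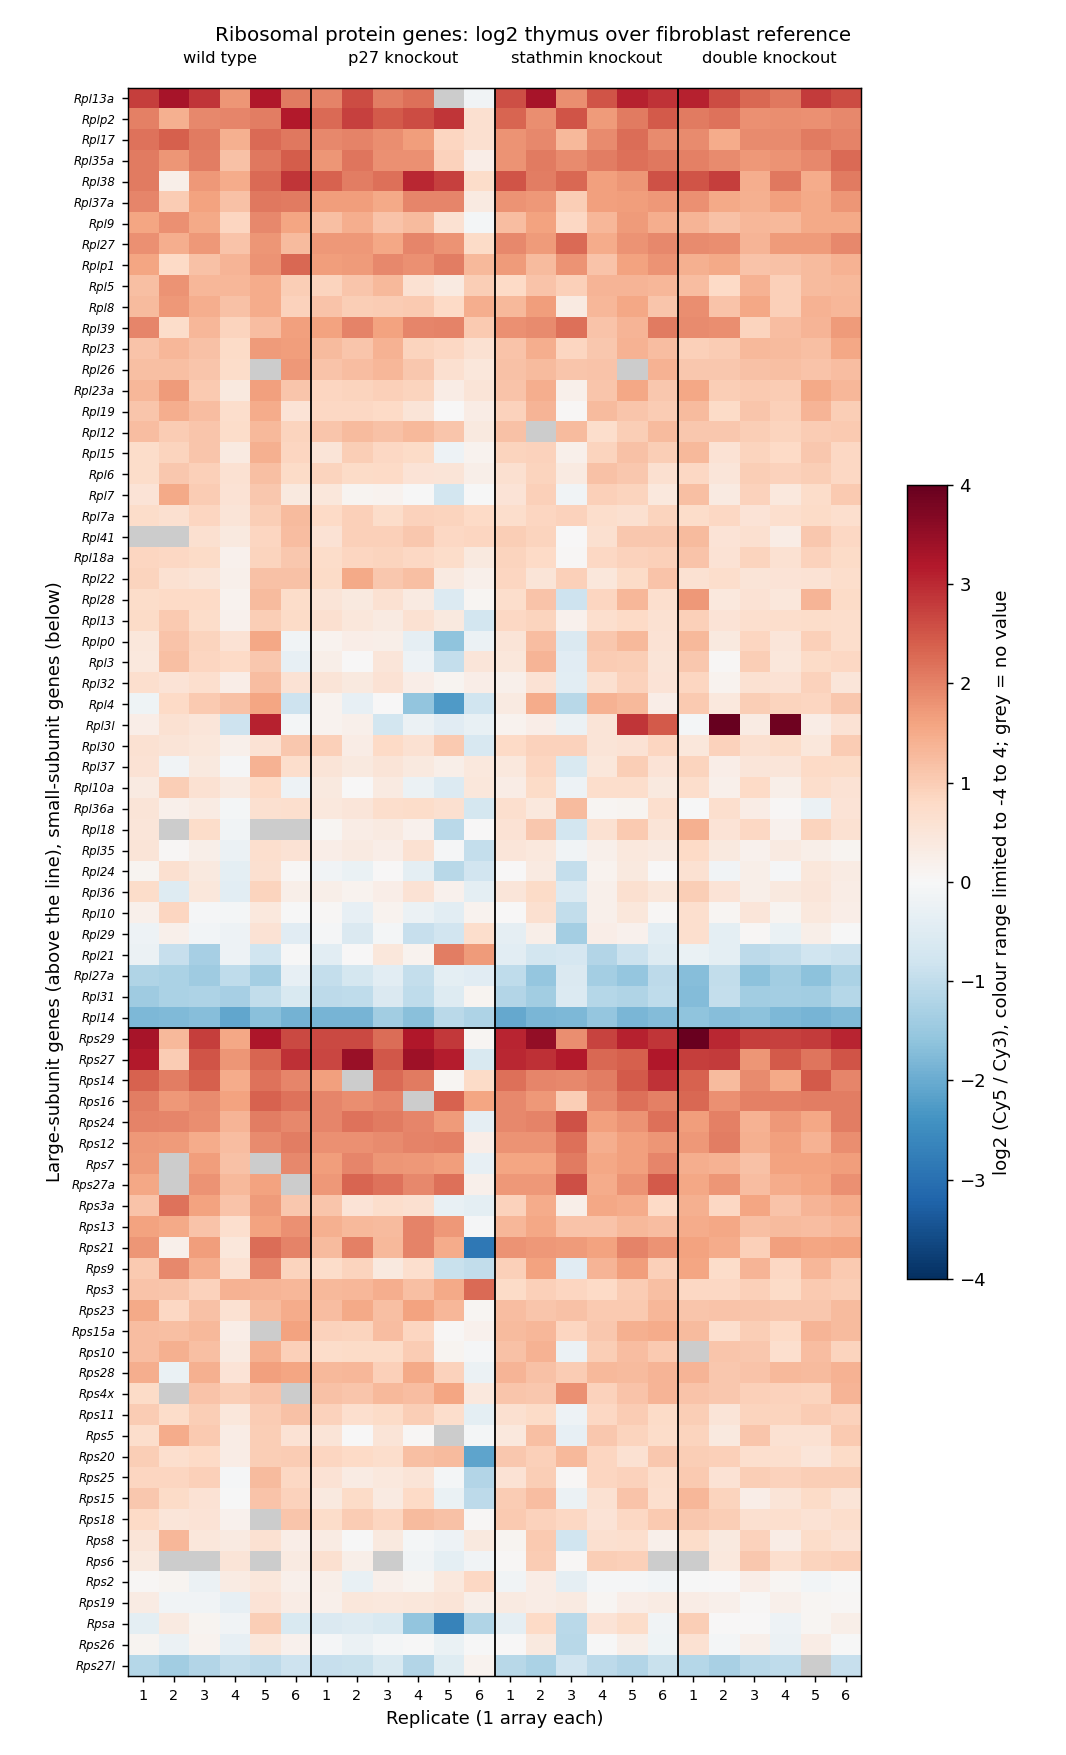
Log2 ratio of thymus over fibroblast pool for 76 of the 77 ribosomal protein genes (rows, large subunit above the line, sorted by the wild-type mean within each subunit) on each of the 24 arrays (columns, 6 mice per genotype). Red is above and blue below the pool, and grey cells have no value. Rpl13a and Rps29 head their subunits and Rpl14 ends the large one, and the column of p27 knockout replicate 6 departs from its neighbours in genes such as Rps21, Rps20 and Rps27.

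Summed over the family, the 4 genotypes overlapped. The median of the 77 genes on each wild-type array ran from 0.46 to 1.27, with a median array at 0.91. For mice without p27 it ran from 0.13 to 0.82 (median 0.77), for those without stathmin from 0.35 to 1.09 (median 0.97) and for those without both from 0.79 to 1.10 (median 0.96). The p27 knockout was lowest, and its 2 lowest arrays were replicates 6 (0.13) and 5 (0.44), the dimmest in Cy5; the other 4 lay between 0.76 and 0.82, inside the wild-type range. Wild-type replicate 4 at 0.46 and stathmin knockout replicate 3 at 0.35 were also low, and each was the dimmest array of its genotype in Cy5. The part of signal brightness in these medians was not tested.

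**Figure D2:**
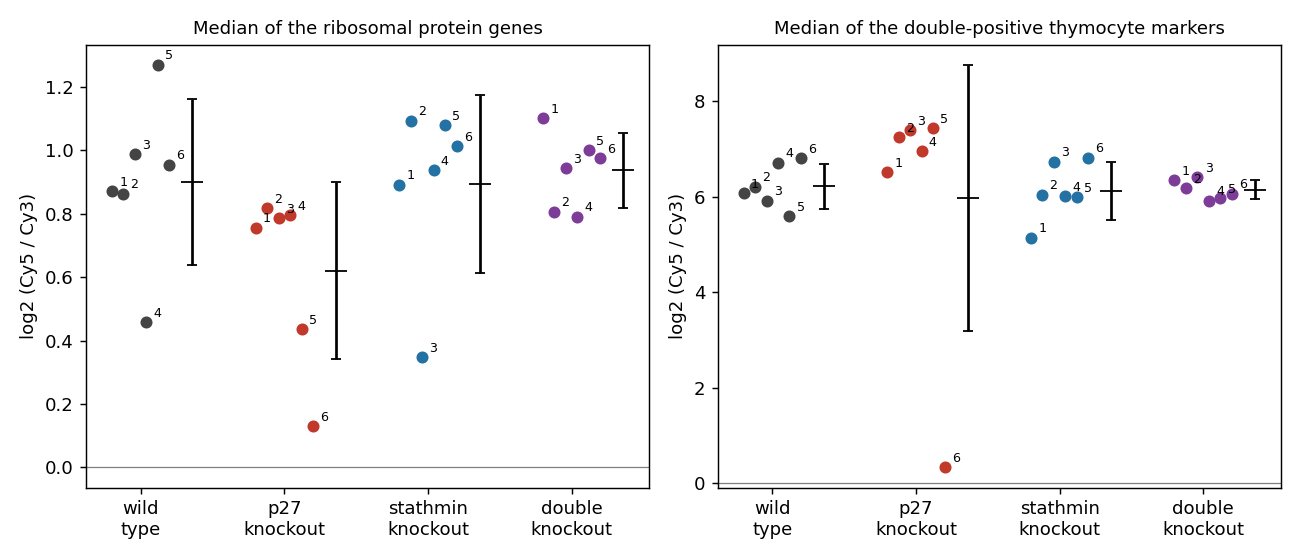
Left, median log2 ratio of the 77 ribosomal protein genes on each array, by genotype; right, the same for 15 double-positive thymocyte markers. Points are mice with their replicate number, and the bar beside each group is the mean ± SD (n = 6). On the left the p27 knockout extends lowest, to 0.13 on replicate 6, and on the right that array stands at 0.33 with all others above 5.

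Genes tended to move together from mouse to mouse within genotypes, with 68.5% of pairs of genes correlated above 0 over the 24 arrays. Over the 61 genes with all values, the median correlation between 2 genes' deviations from their genotype means was 0.30 over the 24 arrays and 0.28 without p27 knockout replicates 5 and 6. Over the 24 arrays it was 0.49 between genes of the small subunit, 0.26 between genes of the large subunit and 0.31 between the subunits. This split is not given without those 2 replicates. On p27 knockout replicate 6 the small-subunit median was -0.05, against 0.71 to 1.00 on the other arrays of that genotype. The part of that array in the 0.49 was not tested, and no such value over all genes is set beside these. These points share arrays, brightness and the normalization, and the values are a description.

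Loss of p27 alone was compared with wild type first. None of the 77 genes passed (limma's moderated test over 24784 genes, Benjamini-Hochberg adjusted p below 0.05), where 0.00807% of all genes did. The median change was -0.25 for the family and 0.14 over all genes, with 55 of 77 genes below 0, and 23 genes (29.9%) had an unadjusted p below 0.05, about the share over all genes (28.9%). When p27 knockout replicates 5 and 6 were left out, the family's median was -0.04, and 9 genes had an unadjusted p below 0.05. The share over all genes is not given for that fit, so this count is not read as a result about the family.

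The 2 genes with the lowest p were Rps3a and Rpl21. Rps3a, a small-subunit protein near the exit of the messenger RNA, ran from 1.09 to 2.17 (median 1.38) in wild type and from -0.39 to 1.10 (median 0.59) in the p27 knockout. The ranges met only at their ends, and the p27 knockout was lower on 6 of 6 slides. The change was -1.09 ± 0.27 (SE), with limma adjusted p = 0.0809, and without replicates 5 and 6 it was -0.73 (adjusted p = 0.374). Rpl21 ran from -1.32 to -0.03 (median -0.52) in wild type and from -0.43 to 2.06 (median 0.30) in the p27 knockout, where its 2 highest values were those of replicates 5 and 6. The change was 1.24 ± 0.33 (adjusted p = 0.0809), and 0.63 (adjusted p = 0.374) without those 2 mice.

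Stathmin knockout and wild type were compared next. No member passed, where 0% of all genes did, and no member had an unadjusted p below 0.05, where 2.72% of all genes had one. The median change was -0.01 (all genes -0.02), with 37 genes above and 40 below 0. Rpl39, a small basic protein of the peptide exit tunnel, had the lowest p, with 1.30 ± 0.45 (SD, n = 6) in wild type and 1.75 ± 0.42 in the stathmin knockout, a change of 0.45 ± 0.24 (SE; limma adjusted p = 1). Rps3, which lies at the entry of the messenger RNA into the small subunit, was next, at a change of -0.27 ± 0.16 (adjusted p = 1) and below wild type on 6 of 6 slides.

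Loss of both proteins together likewise gave no member that passed against wild type, where 0.0121% of all genes did. Nor did any member have an unadjusted p below 0.05, where 4.71% of all genes had one. The median change was -0.01 (all genes -0.04). Rps3 ran from 0.92 to 1.39 (median 1.23) in wild type and from 0.76 to 1.04 (median 0.89) in the double knockout. The ranges overlapped, and the change was -0.31 ± 0.16 (SE; limma adjusted p = 1). The change of Rpl27a was -0.33 ± 0.20 (adjusted p = 1). Against the stathmin knockout, which shares the loss of stathmin, the double knockout had 0 members that passed, where 0.00807% of all genes did, and a median change of 0.03 (all genes -0.02). The lowest p there belonged to Rps27a (-0.39 ± 0.28, adjusted p = 1), which is made as a fusion with ubiquitin, and to Rpl36a (-0.32 ± 0.24, adjusted p = 1).

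The double knockout differed from the p27 knockout, and of the 5 pairs of genotypes tested it was the one between which members passed: 9 genes were higher (11.7% of the family), where 9.67% of all genes were higher, and 4 were lower (5.19%), where 19.2% were lower. The share of higher genes was near the background, while the median change was 0.27 for the family against -0.16 over all genes, with 55 of 77 genes above 0. Without p27 knockout replicates 5 and 6 the family had 0 higher genes, where 3.95% of all genes were higher. It had 3 lower genes (Rpl21, Rpl27a and Rps3), where 10.4% were lower. The median change was then 0.04. An unadjusted p below 0.05 was then seen for 14 genes, a count not read here since the share over all genes is not given. The 9 higher genes thus passed only with those 2 mice in the group. With arrays centred on the median in place of the loess curve, which evens out ratios along brightness, 67 members were higher and 0 lower, where 42.5% of all genes were higher. On single slides the median change was 0.79 on slide 3, which holds p27 knockout replicate 6, and between -0.04 and 0.18 on the other 5. This comparison and that of the p27 knockout with wild type share the p27 knockout arrays, so their opposite signs are not separate results.

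Rpl4, which lines the peptide exit tunnel of the large subunit, had the largest change among the higher genes. Its log2 ratio ran from -2.25 to 0.13 (median -0.56) in the p27 knockout and from 0.43 to 1.08 (median 0.93) in the double knockout. The groups did not overlap, whereas wild type (-0.82 to 1.58) and the stathmin knockout (-1.11 to 1.48) overlapped both. The change was 1.68 ± 0.46 (SE), 3.20-fold, higher on 6 of 6 slides (limma adjusted p = 0.0119). Without replicates 5 and 6 it was 1.32 (adjusted p = 0.0612).

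Rpsa, the small-subunit protein also known as the laminin receptor precursor, ran from -2.68 to -0.53 (median -0.90) in the p27 knockout and from -0.21 to 0.97 (median 0.05) in the double knockout. All double knockout arrays lay above all p27 knockout arrays, and its change was 1.38 ± 0.37 (SE), higher on 6 of 6 slides (limma adjusted p = 0.011). Without the 2 dim mice it was 1.00 (adjusted p = 0.0568). A second, dimmer Rpsa probe went the other way by -0.55 and did not pass (adjusted p = 0.232 over all probes).

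Of the ribosomal stalk, where Rplp0 anchors Rplp1 and Rplp2 and together they recruit elongation factors, only Rplp0 passed. Rplp0 ran from -1.60 to 0.26 (median -0.05) in the p27 knockout and from 0.38 to 1.30 (median 0.77) in the double knockout, without overlap. Its change was 1.04 ± 0.34 (SE; limma adjusted p = 0.0255), and 0.72 (adjusted p = 0.121) without the 2 dim mice. Both probes that carry the older name Arbp for the same gene did not pass, with changes of -0.06 (adjusted p = 0.82 over all probes) and 0.60 (adjusted p = 0.111). Rplp1 and Rplp2 had changes of -0.42 ± 0.20 (adjusted p = 0.115) and -0.31 ± 0.30 (adjusted p = 0.442), and neither passed. The Rplp2 probe was saturated on 19 and the Rplp1 probe on 5 of the 24 arrays. From 0 to 2 member probes were saturated on each p27 knockout array and from 2 to 22 on each double knockout array, so no direction is read for these genes.

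Rps3a and Rps25, both of the small subunit, were higher by 0.92 ± 0.27 (SE; limma adjusted p = 0.0174) and 0.81 ± 0.26 (adjusted p = 0.0234), on 6 of 6 slides each. Without the 2 dim mice the changes were 0.56 (adjusted p = 0.122) and 0.45 (adjusted p = 0.121). The second Rps3a probe had a change of 0.34 (adjusted p = 0.203 over all probes). The chosen probes of Rps3a and Rps25 were saturated on 6 and 3 of the 24 arrays, which limits these changes too. Rps25, which several viral messenger RNAs need to recruit ribosomes, ran from -1.18 to 0.58 (median 0.38) in the p27 knockout and from 0.58 to 1.05 (median 0.97) in the double knockout. The ranges met at the upper end of the p27 knockout. Its dimmer second probe passed in the opposite direction, by -0.77 (adjusted p = 0.0223 over all probes), so the direction of Rps25 depends on the probe. Rpl7, a large-subunit protein, was higher by 0.79 ± 0.23 (adjusted p = 0.0178) on 5 of 6 slides, and by 0.60 (adjusted p = 0.0802) without the 2 dim mice, where it did not pass; of its other 2 probes 1 had a like change of 0.79 and 1 of -0.04.

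Rps6, the substrate of the S6 kinases downstream of mTOR, ran from -0.40 to 0.63 (median -0.13, n = 5) in the p27 knockout and from 0.43 to 1.09 (median 0.88, n = 5) in the double knockout. The groups overlapped, and only 3 wild-type arrays gave a value, between 0.37 and 0.50. The change was 0.77 ± 0.25 (SE; limma adjusted p = 0.0306), on the 4 slides with both values always above 0, and it was 0.56 (adjusted p = 0.146) without the 2 dim mice and 0.70 (adjusted p = 0.0748) with slide as a block. Its second probe had a change of -0.09 (adjusted p = 0.801 over all probes). The 2 remaining higher genes, named after their values were seen, were Rps9 (1.01 ± 0.37, adjusted p = 0.0423), a core protein of the small subunit, and Rpl24 (0.69 ± 0.24, adjusted p = 0.0351), which bridges the subunits. Without the 2 dim mice these changes were 0.48 (adjusted p = 0.306) and 0.44 (adjusted p = 0.186). The Rps9 probe was saturated on 2 of the 24 arrays. A second Rpl24 probe had a change of 0.79 (adjusted p = 0.0185 over all probes).

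Rpl21 had the largest change among the lower genes, with -0.43 to 2.06 in the p27 knockout and -1.03 to -0.26 (median -0.82) in the double knockout. The groups overlapped at the lower end of the p27 knockout. The change was -1.37 ± 0.33 (SE; limma adjusted p = 0.00734), and -0.76 (adjusted p = 0.0391) without the 2 dim mice, where it still passed. Its second probe had a change of -0.14 (adjusted p = 0.488 over all probes), so that this difference too was seen by 1 of 2 probes. The direction of all the lower genes (Rpl21, Rpl27a, Rps3 and Rpl31) depended on the normalization. They read higher in the double knockout with arrays centred on the median without loess, and with the log2 table that the authors deposited (values in the last section).

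Rpl27a was lower with both of its probes. The chosen probe ran from -0.96 to -0.39 (median -0.57) in the p27 knockout and from -1.71 to -0.98 (median -1.50) in the double knockout, without overlap. The change was -0.79 ± 0.20 (SE; limma adjusted p = 0.00987), and -0.68 (adjusted p = 0.045) without the 2 dim mice. The second probe had a change of -0.86 (adjusted p = 0.0145 over all probes). Of the 13 genes, it was the one that passed with both probes on all arrays and whose chosen probe also passed without the 2 dim mice. This holds for the loess-normalized ratios only, since its direction turned with median centring and with the authors' table.

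Rps3 ran from 1.19 to 2.27 (median 1.39) in the p27 knockout and from 0.76 to 1.04 (median 0.89) in the double knockout, without overlap. The change was -0.61 ± 0.16 (SE; limma adjusted p = 0.0105), and -0.42 (adjusted p = 0.0346) without the 2 dim mice. Its second probe had a change of 0.44 that did not pass (adjusted p = 0.21 over all probes). Rpl31, which lies near the exit of the peptide tunnel, was lower by 0.64 on the log2 scale (-0.64 ± 0.20, adjusted p = 0.0242) and by -0.93 with its second probe (adjusted p = 0.0174 over all probes), but did not pass without the 2 dim mice (-0.41, adjusted p = 0.124).

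Genes whose groups did not overlap were few. All 6 double knockout arrays lay above all 6 p27 knockout arrays for 4 genes (Rpl4, Rpsa, Rplp0 and Rpl23a), where 4.07% of all genes did so, and below them for 2 genes (Rpl27a and Rps3), where 7.89% did. The probes of 19 of the 37 genes with several probes differed in the sign of this change. Outside the rule, Rpl36al, a near copy of Rpl36a, had a change of 0.85 (adjusted p = 0.0124 over all probes). The kept probe of Rpl39l, a paralogue of Rpl39, had a change of -3.10 (adjusted p = 0.00244). Of the Rpl7l1 probes 1 had a change of 0.94 (adjusted p = 0.00525) and the other of -0.10 (adjusted p = 0.631).

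**Figure D3:**
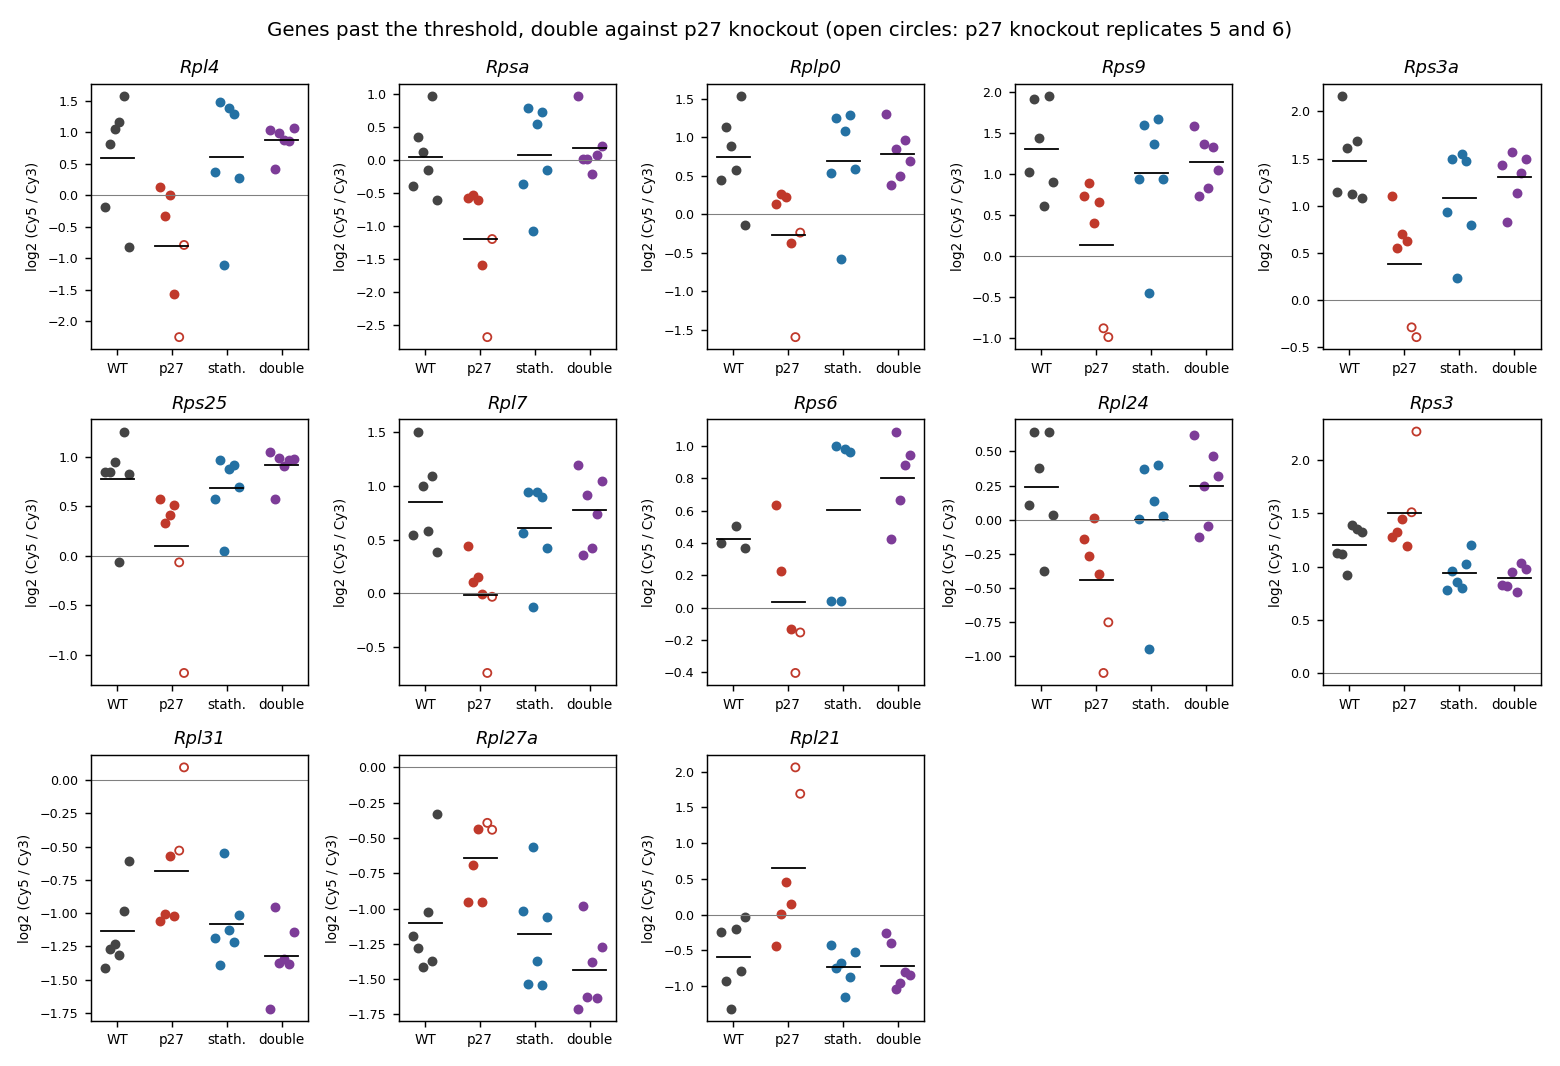
Log2 ratio of thymus over fibroblast pool for the 13 genes that passed between the double and the p27 knockout, 1 panel per gene, 6 mice per genotype; lines are group means and open circles are p27 knockout replicates 5 and 6. In the 9 genes that were higher in the double knockout, the lowest p27 knockout value is an open circle, and in the 4 lower genes the highest is one.

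**Figure D4:**
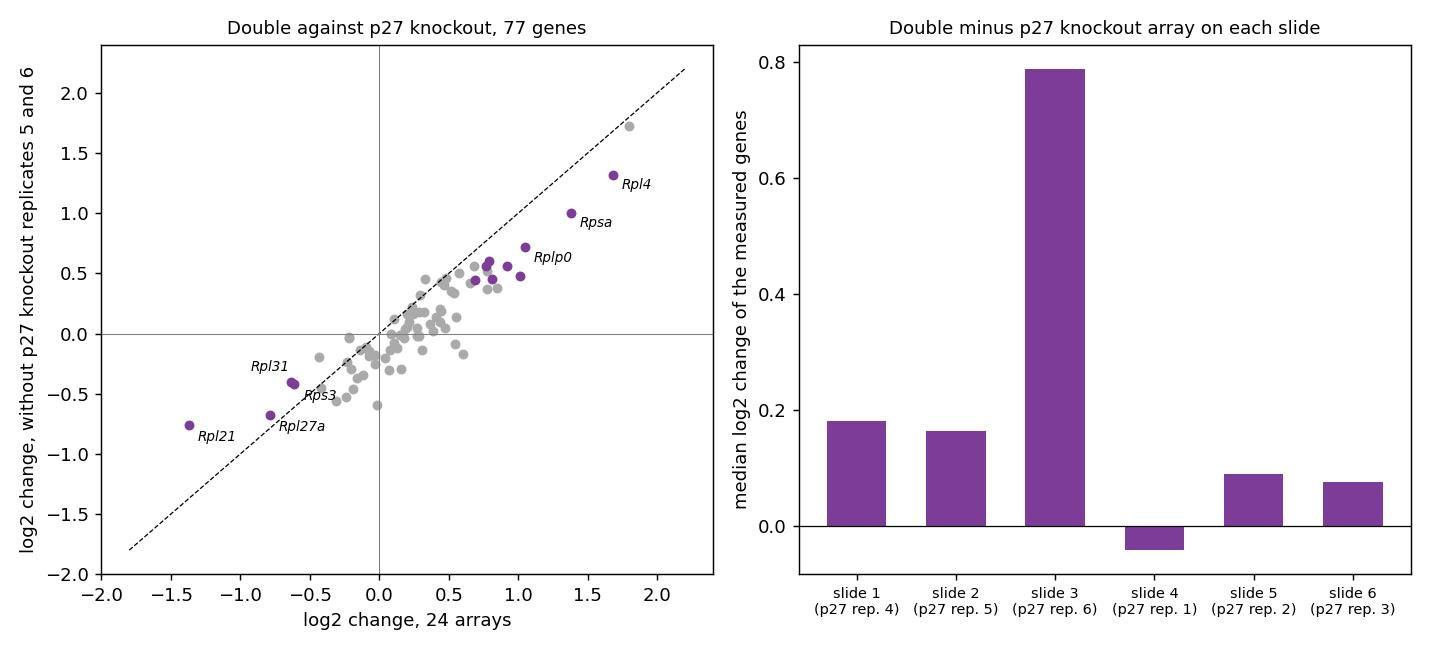
Left, log2 change between the double and the p27 knockout for the 77 genes with all 24 arrays (x) and without p27 knockout replicates 5 and 6 (y); purple marks the 13 genes that passed with all arrays, and 7 of them are named. Right, median log2 change of the genes measured on both arrays of each slide, with the p27 knockout replicate on it. Most genes lie below the line of equal change on the right side, and the bar of slide 3, at 0.79, exceeds the others.

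Whether the effect of losing p27 depended on stathmin was tested as an interaction. No member passed, where 0% of all genes did, and 14 members (18.2%) had an unadjusted p below 0.05, against 17.8% of all genes. Rps3a (1.31 ± 0.38 SE) and Rpl7 (1.03 ± 0.33) had the lowest p, both with limma adjusted p = 0.264, and without the 2 dim mice 0.95 and 0.85, both with adjusted p = 0.485. In a test for any difference among the 4 genotypes 6 members passed (Rpl21, Rpsa, Rps3a, Rps3, Rpl7 and Rpl4), 7.79% of the family, where 13.0% of all genes did, and 0 did without p27 knockout replicates 5 and 6.

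The 5 genes described here for human Diamond-Blackfan anaemia (Rps19, Rpl5, Rps24, Rpl35a and Rps26) did not pass with their chosen probes in any comparison. Rps19, the gene most often affected in that disease, was close to the pool at 0.09 ± 0.34 (SD, n = 6) in wild-type mice, 0.38 ± 0.14 without p27 and 0.15 ± 0.10 in double knockouts, and its change between the latter 2 was -0.23 ± 0.14 (SE; limma adjusted p = 0.227). The other kept Rps19 probe, also bright, passed in the opposite direction at 0.72 (adjusted p = 0.0487 over all probes). Rpl5, which carries 5S ribosomal RNA and binds the p53 regulator MDM2, was at 1.34 ± 0.27 in wild type and 0.87 ± 0.34 in the p27 knockout, a change of -0.47 ± 0.18 (adjusted p = 0.102). The changes of Rps24, Rpl35a and Rps26 between the double and the p27 knockout lay between 0.15 and 0.48, with adjusted p of 0.155 at the lowest. Without the 2 dim mice Rps24 had -0.30 (adjusted p = 0.227), Rpl35a 0.04 (adjusted p = 0.887) and Rps26 0.22 (adjusted p = 0.501). Of the other 2 Rps24 probes 1 was lower by -0.90 (adjusted p = 0.0315 over all probes) and 1 had 0.30 (adjusted p = 0.594). Rps24 and Rpl35a read high against fibroblasts in wild type (1.87 and 1.93), and Rps26 read near the pool (0.05).

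Rpl22, the protein with a known role in mouse thymocyte development, was at 0.76 ± 0.38 (SD, n = 6) in wild-type mice, 0.85 ± 0.51 without p27, 0.78 ± 0.26 without stathmin and 0.61 ± 0.07 without both. The 4 ranges overlapped, and between the double and the p27 knockout the change was -0.24 ± 0.21 (SE; limma adjusted p = 0.389), and -0.53 ± 0.19 (adjusted p = 0.0605) without the 2 dim mice. Its second probe had a change of 0.02 (adjusted p = 0.957 over all probes). Rpl38, which in mouse embryos favours translation of Hox messenger RNAs, varied widely between wild-type mice, from 0.24 to 2.87, and had a change of -0.12 ± 0.38 (adjusted p = 0.83), and of -0.34 (adjusted p = 0.521) without the 2 dim mice. Rpl10a and Rpl13a had changes of 0.47 ± 0.22 and 0.85 ± 0.39 between these genotypes (adjusted p = 0.106 and 0.0978), and 0.41 and 0.38 without the 2 dim mice (adjusted p = 0.194 and 0.353). Rps4x, the X-linked small-subunit protein, differed by -0.08 ± 0.19 (adjusted p = 0.778) with its chosen probe, while a second, dimmer probe was lower by -1.60 (adjusted p = 0.0389 over all probes). Rps27a differed by -0.19 ± 0.28 (adjusted p = 0.631), and by -0.47 (adjusted p = 0.114) without the 2 dim mice.

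Of the paralogues and their partners, Rpl3l stood apart. Rpl3l replaces Rpl3 in the ribosomes of skeletal and heart muscle, and it was the dimmest member on the array (36.95th percentile), well above background on 19 of 24 arrays. Its log2 ratio ran from -0.84 to 3.07 (median 0.38) in wild-type mice, from -0.74 to 0.21 (median -0.26) without p27, from -0.22 to 2.87 (median 0.39) without stathmin and from -0.07 to 4.39 (median 0.45) without both. Single mice were high in 3 genotypes: wild-type replicate 5, stathmin knockout replicates 5 and 6 and double knockout replicates 2 and 4 read 2.47 to 4.39, and the other 19 arrays read -0.84 to 0.62.

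The same 5 arrays had the 5 highest medians of 10 skeletal muscle genes, among them Acta1, Ckm and Myh4, at 4.05 to 5.49 against -0.63 to 2.80 on the other 19. Between the double and the p27 knockout Rpl3l had a change of 1.80 ± 0.74 (SE; limma adjusted p = 0.0711), with the muscle genes at a median change of 1.63, and without the 2 dim mice 1.73 (adjusted p = 0.156) and 1.46; the part of muscle tissue in this difference was not tested. Rpl3 itself stood at 0.67 ± 0.56 (SD, n = 6) in wild type and had a change of 0.68 ± 0.30 (SE; adjusted p = 0.091). Rps27l had a change of -0.44 ± 0.19 (adjusted p = 0.0869) and its partner Rps27 of -0.02 ± 0.50 (adjusted p = 0.983); without the 2 dim mice these were -0.20 (adjusted p = 0.361) and -0.59 (adjusted p = 0.209). Rpl39 and Rpl10 had changes of -0.20 ± 0.24 and 0.45 ± 0.22 (adjusted p = 0.531 and 0.133).

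**Figure D5:**
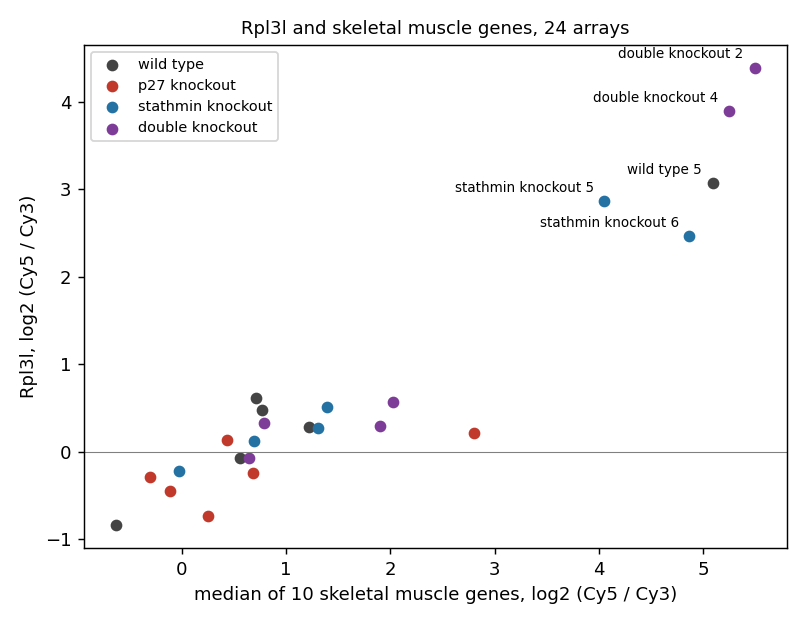
Log2 ratio of Rpl3l (y) against the median log2 ratio of 10 skeletal muscle genes (x) on each of the 24 arrays, coloured by genotype. The 5 labelled arrays, of 3 genotypes, lie above 2 on the y axis and above 4 on the x axis, and the other 19 lie below 1 and below 3.

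Other genes of the translation machinery were set beside the family in the comparison of the double with the p27 knockout. Of 19 other TOP and elongation genes 2 were higher, Eef2 (elongation factor 2, 1.23 ± 0.37 SE, limma adjusted p = 0.0192) and Tpt1 (0.90 ± 0.24, adjusted p = 0.0108), and none was lower. Of 22 initiation genes 2 were higher, among them the scaffold Eif4g1 (0.72 ± 0.19, adjusted p = 0.00926), and 1 was lower, Eif6, which keeps the subunits apart (-0.59 ± 0.20, adjusted p = 0.0292). Of 30 ribosome assembly genes 3 were higher and 1 lower, led by nucleolin, Ncl (1.42 ± 0.37, adjusted p = 0.00962), and Rrp1 (0.80 ± 0.25, adjusted p = 0.0225). Against the backgrounds of 9.67% higher and 19.2% lower these are counts of a few genes.

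Of 13 genes of RNA polymerase I, which makes ribosomal RNA, 3 were higher, with Polr1b (0.63 ± 0.21 SE, limma adjusted p = 0.0268) and Polr1e (0.64 ± 0.21, adjusted p = 0.0283) first. Of 20 mTOR and Myc genes 3 were higher and 3 lower; the S6 kinase gene Rps6kb2 was higher (1.15 ± 0.31, adjusted p = 0.012) and the kinase gene Rps6ka1 lower (-1.12 ± 0.29, adjusted p = 0.00968). Of 78 genes of the mitochondrial ribosome 11 were higher, led by Mrps5 (1.04 ± 0.28, adjusted p = 0.012) and Mrpl9 (1.36 ± 0.37, adjusted p = 0.0123), and 4 were lower. The lists' median changes lay between -0.10 and 0.16, below the 0.27 of the ribosomal protein genes. Without p27 knockout replicates 5 and 6, of all 6 lists 3 genes were higher (1 of initiation and 2 of the mitochondrial ribosome) and 4 lower. The lists' median changes then lay between -0.12 and 0.08, and the family's, at 0.04, lay inside that range. The larger median change of the family was thus seen only with those 2 mice.

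Genes of other cell types moved alongside in the same comparison. Of 12 fibroblast genes 7 were lower, where 19.2% of all genes were, and none was above 0 (median change -0.81). The list's median per array ran from -3.90 to -1.16 in the p27 knockout and from -4.36 to -3.07 in the double knockout. Of 10 adipocyte genes 5 were higher, where 9.67% of all genes were (median change 1.44). Their medians per array ran from -0.21 to 4.58 in the p27 knockout and from 3.18 to 4.95 in the double knockout. Among 7 erythroid, 6 B cell and 6 macrophage genes, 0, 1 and 1 were higher and none was lower. Without the 2 dim mice 0 fibroblast genes were lower (median change -0.49) and 1 adipocyte gene was higher (median change 0.98). Of 15 markers of double-positive thymocytes 0 passed with all arrays. Without p27 knockout replicates 5 and 6, 9 of them were lower, where 10.4% of all genes were. The part of these cell types in the changes of the ribosomal protein genes was not tested.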

How the data were processed

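Per the file headers, the authors scanned 24 two-colour arrays of 1 design and deposited Cy5 and Cy3 signal intensities and Agilent's log10 ratio for each spot (Feature Extraction 9.1.3.1, without background subtraction). They also deposited a log2 table, whose values follow the mean brightness of both channels; its centring is unknown. Here intensities were background-corrected (normexp, offset 50) and loess-normalized within arrays (limma 3.58.1, R 4.3.3), without outlier spots. Kept probes had Cy5 well above background on 6 or more of 24 arrays, and each gene took its brightest probe. limma's moderated test compared the 4 genotypes over 24784 genes with Benjamini-Hochberg adjustment (threshold 0.05), with genotype as the only term. The test was checked on simulated data. Some genes of the family are not reported singly here. Arrays, 6 per group, limit the precision, and dyes were not swapped. The members, lists and tests were chosen with earlier results of these data known. Named genes were, per comparison, the members past the threshold (at most 6 with the lowest p in each direction, or the 2 with the lowest p), genes with a role of their own, and the extremes in wild type. Lists give their 2 genes with the lowest p. Alternatives changed the background correction, normalization, filter, probe rule, blocks and arrays.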

Additional observations from a re-analysis of the deposited data

Results flagged for a closer look

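Of 52 sets of 6 or fewer arrays examined, 11 had 1 array far from the others by Dixon's criterion. The sets were the family and subunit medians, and the 10 named genes that passed, in each genotype. For unrelated sets chance gives about 1 in 20. These sets share arrays and genes, and the genes were chosen because they passed, so no excess is read from the count. Stathmin knockout replicate 3 was low in the family median (0.35) and the large-subunit median (0.17), and p27 knockout replicate 6 in the small-subunit median (-0.05). Single genes were Rpl27a (-0.33 in wild-type replicate 6), Rpl4 (0.43 in double knockout replicate 2), Rplp0 (-1.60 in p27 knockout replicate 5), Rpsa (0.97 in double knockout replicate 1) and Rps3 (2.27 in p27 knockout replicate 6). Rps25 had such an array in 3 genotypes, at -0.06 in wild-type replicate 4, -1.18 in p27 knockout replicate 6 and 0.58 in double knockout replicate 2. Of the 61 genes measured on every array, 0 moved one way on all slides with the loss of p27 alone and the other way with its loss beside that of stathmin; this was a count of signs, not a test.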

How the results depend on the processing

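The loess curve mattered most. With arrays centred on the median and no loess, 67 genes passed between the double and the p27 knockout, all higher, and 68 for any difference; the family's median changes were -0.99 (p27 knockout against wild type, all genes -0.20), 0.67 (stathmin knockout, 0.30), 0.48 (double knockout, 0.23), 1.5 (double against p27 knockout, 0.52), -0.21 (double against stathmin knockout, -0.07) and 0.8 (interaction, 0.13), and the levels 0.14 in wild type, -0.94 in the p27 knockout and 0.62 in the double knockout. Directions then turned for Rps3 (0.44, 0.17 and 0.61 for stathmin knockout and double knockout against wild type and double against p27 knockout), Rpl27a (0.11 and 0.57 for the latter 2), Rpl21 (0.14) and Rpl31 (0.74, double against p27 knockout). The authors' deposited table, which holds brightness, turned Rpl21 (-0.20 for p27 knockout against wild type, 0.30 for double against p27 knockout), Rps3 (0.08, 0.12 and 0.05), Rpl27a (0.14 and 0.65), Rpl31 (0.76) and Rps27a (0.08, double against stathmin knockout), and gave 3 genes for p27 knockout against wild type. The cause was not tested. Levels against fibroblasts cannot be given from that table or from Cy5 alone.

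Between the double and the p27 knockout, 8 genes passed with Cy5 alone, 25 of 126 probes tested singly, 3 without p27 knockout replicates 5 and 6 (median 0.04; interaction median 0.03) and 1 with slide as a block without their slides, an alternative chosen after seeing the data; slide as a block alone gave 12, all among the 13. For any difference the count was 1 with Cy5 alone, 3 with the mean of probes, 2 with the replicate block, 11 with array weights, and 0 without replicates 5 and 6, with or without the slide block. Array weights gave 4 genes for p27 knockout against wild type and an interaction median of 0.02. Levels moved with Agilent's log ratios (wild type 0.49, p27 knockout 0.13, stathmin knockout 0.52, double knockout 0.50), with saturated genes left out (0.61 stathmin, 0.70 double knockout), and in the double knockout with a loess curve without the member probes (1.1), single probes (0.73) and probe means (0.74). Replicate numbers were not taken to pair the samples (15 of 36 same-numbered pairs correlated above 0.1, lowest -0.56), although same-numbered wild-type, stathmin and double knockout arrays share a slide; of the 36 pairs on 1 slide 21 correlated above 0.1 (median 0.14, lowest -0.36). With the replicate block 10 genes passed between the double and the p27 knockout. For double against p27 knockout, shares of all genes are given above for median centring and without the 2 dim mice. The other counts of genes in this section lack that share and are not read as results about the family.

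Leaving out 1 array gave 9 to 17 genes between the double and the p27 knockout, 0 to 10 for any difference and 0 to 8 for p27 knockout against wild type: 8 if wild-type replicate 6 was left out, 6 for p27 knockout replicate 1, 5 for its replicate 2 and 4 for its replicate 4. For any difference it gave 10 without stathmin knockout replicate 3, 0 without p27 knockout replicate 5, 2 without its replicate 6, 1 without p27 knockout replicate 3 or, separately, double knockout replicate 6, and 3 when any 1 was left out of wild-type replicate 3, stathmin knockout replicate 2, 4 or 5 or double knockout replicate 1. The other 4 comparisons gave 0 throughout. Median changes ran from -0.34 to -0.08, -0.10 to 0.05, -0.10 to 0.04, 0.12 to 0.29, -0.05 to 0.06 and 0.15 to 0.38 in the order above, and levels from 0.83 to 0.99, 0.58 to 0.72, 0.85 to 1.00 and 0.90 to 0.97. Of 796 values of single genes under alternatives, 740 kept direction and side of the threshold. Saturation limits the brightest genes and background limits Rpl3l.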
